A study of Macaca mulatta with 13 samples.

Results

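The plasma cell program was described through 8 genes, PRDM1, IRF4, XBP1, MZB1, JCHAIN, TNFRSF17, SDC1 and CD38, in peripheral blood mononuclear cells (PBMC) of infant rhesus macaques. Members were all probe sets that the platform annotation pairs with exactly 1 symbol, that symbol being 1 of the 8. This gave 15 probe sets of 7 genes, out of 52707 probe sets other than controls and 14132 genes named in the same way. CD38 was paired with no probe set in the annotation used and was not analysed here. Of the 15 probe sets, 13 passed the filter on dim signal and were tested among 26352 probe sets in all, and each of the 7 genes kept at least 1.

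The arrays came from peer-reared animals (n = 4), surrogate-peer-reared animals (n = 4) and maternally reared animals (n = 5). Every sample was labelled as 4 months old, and the labels record no other treatment. The study asked whether blood cell expression depends on early rearing. The labels do not say that each array is a separate animal or how the peer and surrogate settings were kept, so p-values measure the spread between these arrays. Non-maternal below stands for the peer and surrogate-peer groups together, with the 2 group means weighted equally.

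Plasma cells are the antibody-secreting end stage of the B cell lineage, and their immature forms, plasmablasts, pass through the blood. The repressor PRDM1 (BLIMP-1) shuts down genes of the mature B cell, while IRF4 and XBP1 drive the secretory state in which MZB1 and JCHAIN help to fold and assemble antibody. TNFRSF17 (BCMA) receives survival signals and SDC1 (CD138) marks the surface of mature plasma cells. None of these genes belongs to plasma cells alone in blood: T and NK cells also make PRDM1, plasmacytoid dendritic cells make MZB1, JCHAIN and IRF4, and monocytes make XBP1. In mixed cells, fewer cells of a type and less RNA per cell cannot be told apart.

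Values are log2 expression by robust multi-array average (RMA), so a difference of 1 is a doubling, and levels of different probe sets were not compared. Markers of the labelled cells were present: probe sets of MS4A1 (B cells), CD14 and LYZ (monocytes) and GZMB (NK and cytotoxic T cells) lay above the filter level of 6.04 on every array. The log2 ratio of 3' to 5' control signal, a sign of RNA quality, was 1.33 to 1.74 on non-maternal arrays, against 1.55 to 2.23 on maternal arrays, with the highest value on maternal array 4. The SD of all values of an array was 2.13 to 2.16 on non-maternal arrays, against 2.10 to 2.12 on maternal arrays, without overlap. Maternal arrays 5, 2 and 4 had the lowest mean correlations with the other arrays, 0.975, 0.982 and 0.982. The part of these differences in the results below was not tested except by the covariates and left-out arrays given.

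PRDM1 was the 1 member called lower in non-maternal animals, and MZB1, given below, had fold changes of near size that were not called. Over all tested probe sets, limma with Benjamini-Hochberg adjustment and a threshold of 0.05 called 8% different between non-maternal and maternal arrays, 6.64% higher and 1.35% lower. Among the 13 member probe sets, 0 were called higher and 2 were called lower, and both of these belong to PRDM1. As the 2 probe sets read 1 gene on the same arrays, they are not independent of each other. With each array centred on its median, the calls over all tested probe sets were 1094 higher and 834 lower, against 1751 higher and 356 lower with the values as deposited, and both PRDM1 probe sets were called lower in each.

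At the brighter PRDM1 probe set (MmugDNA.39211.1.S1_at), log2 values were 9.05, 8.99, 9.60 and 8.34 on peer arrays and 8.998, 8.68, 8.93 and 8.78 on surrogate-peer arrays, against 9.84, 9.25, 9.32, 9.97 and 9.90 on maternal arrays. Peer array 3 lay inside the maternal range, and the other 7 non-maternal arrays lay below every maternal array. The log2 fold change, non-maternal minus maternal, was -0.73 ± 0.19 (SE), a 1.66-fold lower level (95% confidence interval of the log2 fold change -1.15 to -0.32, limma adjusted p = 0.0401).

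The other tested PRDM1 probe set (MmuSTS.3030.1.S1_at) read 7.19, 7.11, 7.36 and 6.46 on peer arrays and 7.15, 6.99, 7.08 and 6.84 on surrogate-peer arrays, against 7.70, 7.89, 7.47, 8.05 and 8.45 on maternal arrays. Here all 8 non-maternal arrays lay below all 5 maternal arrays. The log2 fold change was -0.89 ± 0.17 (SE), a 1.85-fold lower level (95% confidence interval -1.26 to -0.52, limma adjusted p = 0.0226). It was the single member probe set of 13 whose non-maternal values all lay below the maternal ones, a pattern seen in 0.971% of all tested probe sets.

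**Figure D1:**
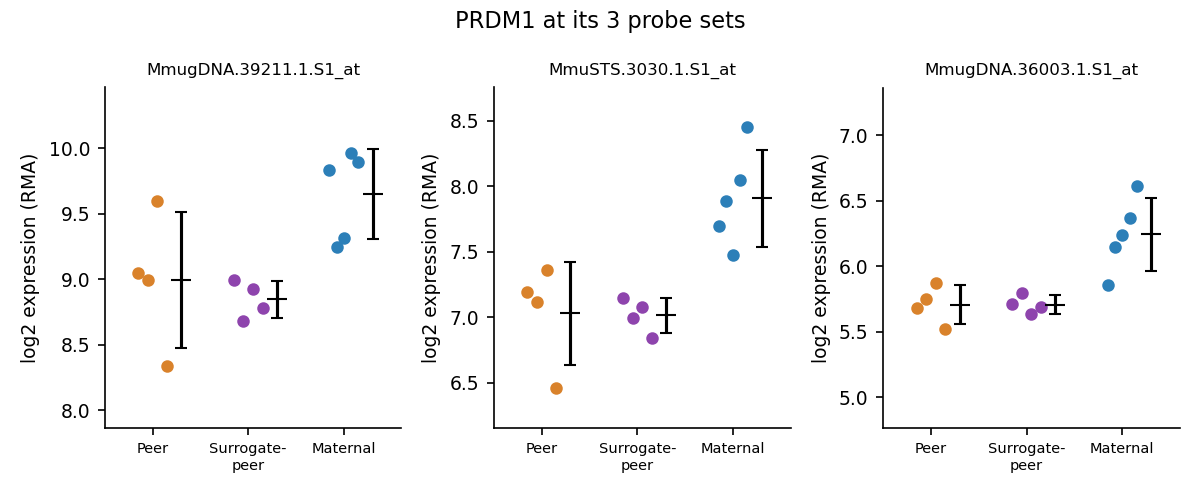
Log2 expression at the 3 PRDM1 probe sets, with 1 panel per probe set, points for single arrays and bars for the group mean with its SD, in peer (n = 4), surrogate-peer (n = 4) and maternal (n = 5) arrays. The maternal group mean is the highest in each panel, and in the panel of MmuSTS.3030.1.S1_at no array of the other groups reaches the lowest maternal value of 7.47.

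The third PRDM1 probe set (MmugDNA.36003.1.S1_at) was dim, with a mean below the filter level, and was left out of the test. It read 5.52 to 5.87 on peer arrays and 5.63 to 5.80 on surrogate-peer arrays, against 5.86 to 6.61 on maternal arrays, so that peer array 3 alone reached the lowest maternal value. The difference of means was -0.54, and in the fit with no filter, over 52707 probe sets, it was called lower (limma adjusted p = 0.0290). Across the 13 arrays the 3 PRDM1 probe sets followed each other with Pearson r of 0.90, 0.77 and 0.91.

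The PRDM1 calls depended on single arrays. Over the 13 fits that each left out 1 array, the log2 fold change at MmugDNA.39211.1.S1_at stayed between -0.83 and -0.62, and it was called in 4 of them, those without peer array 3 or maternal array 1, 2 or 3. At MmuSTS.3030.1.S1_at the range was -0.998 to -0.75, and the call was lost without maternal array 4 (limma adjusted p = 0.0663) and without maternal array 5 (adjusted p = 0.0523). Leaving out maternal array 4 or 5 also lowered the calls over all probe sets to 30 and 60, against 2107 with all arrays. At MmugDNA.39211.1.S1_at the call was also lost with no filter (adjusted p = 0.0555), with array weights (0.0590) and with the title number as a covariate (0.0911), settings in which MmuSTS.3030.1.S1_at was called. Neither was called without maternal arrays 2 and 5 together (adjusted p = 0.0908 and 0.0763). With the 3' to 5' ratio as a covariate the log2 fold changes were -0.61 (adjusted p = 0.210) at MmugDNA.39211.1.S1_at and -1.02 (adjusted p = 0.0436) at MmuSTS.3030.1.S1_at.

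Markers of other cells that make PRDM1 moved on the same arrays. At 1 probe set per gene, the brightest, 5 of 13 tested markers of NK and cytotoxic cells were called lower in non-maternal animals and 0 higher. Among them were GZMH and GZMB, the cytotoxic granule proteases, at log2 fold changes of -1.61 and -1.37. The others called were FCGR3 (-1.20), NKG7 (-1.01) and CST7 (-0.92). Of the 13 markers, 11 had negative and 2 had positive fold changes. The positive ones were CTSW, at 0.44 (limma adjusted p = 0.324), and GZMA, at 0.13 to 0.15 over its 3 probe sets. The mean of this marker list, as a deviation from its mean over all arrays, was -0.75 to 0.50 on non-maternal arrays, against -0.05 to 0.83 on maternal arrays. The T cell list gave -0.05 to 0.36 on non-maternal arrays, against -0.56 to -0.003 on maternal arrays, with 1 of 9 markers, BCL11B, called higher. For all tested probe sets the shares called were 1.35% lower and 6.64% higher. Named after their values were seen, less bright probe sets were called lower for GNLY (-0.42, adjusted p = 0.0220) and KLRC1 (-1.38, adjusted p = 0.0289) and higher for CD8A (0.89, adjusted p = 0.0203) and TRAT1 (0.83, adjusted p = 0.0335). PRDM1 and the NK list had a Pearson r of 0.46 over the 13 arrays (permutation p = 0.115, adjusted p = 0.493 over 56 such pairs) and a Spearman rho of 0.53 (permutation p = 0.0634, adjusted p = 0.395). That r was 0.34 without maternal arrays 1 and 3, the farthest from the median of the NK list, and -0.11 for deviations from the group means. PRDM1 and the T cell list had r = -0.58 (permutation p = 0.0387, adjusted p = 0.393) and rho = -0.54 (permutation p = 0.0602, adjusted p = 0.395), with r of -0.59 without maternal arrays 2 and 5 and -0.03 for deviations from the group means. The part of NK and T cells in the PRDM1 result was not tested.

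IRF4, which acts beside PRDM1 at the top of the program, did not pass the test. Its 1 probe set read 7.43, 6.76, 6.97 and 7.04 on peer arrays and 6.86, 6.86, 7.003 and 6.98 on surrogate-peer arrays, against 6.77, 6.83, 7.21, 7.04 and 6.57 on maternal arrays. The groups overlapped throughout. The log2 fold change of non-maternal over maternal arrays was 0.10 ± 0.12 (SE, 95% confidence interval -0.16 to 0.37, limma adjusted p = 0.582), and it was 0.38 with the 3' to 5' ratio as a covariate (adjusted p = 0.1505).

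XBP1, the transcription factor that enlarges the endoplasmic reticulum for antibody secretion, gave no call either. Its brighter probe set read 9.82, 9.67, 9.67 and 10.08 on peer arrays and 9.89, 10.72, 9.63 and 10.56 on surrogate-peer arrays, against 9.81, 10.25, 10.08, 10.10 and 11.68 on maternal arrays. Maternal array 5 stood alone at the top, and the remaining maternal values lay within the range of the surrogate-peer arrays. Non-maternal minus maternal, the log2 fold change was -0.38 ± 0.29 (SE, limma adjusted p = 0.388), and it was -0.06 without maternal array 5. It was -0.94 with the 3' to 5' ratio as a covariate (adjusted p = 0.159) and -0.82 with the title number (adjusted p = 0.128). The dimmer XBP1 probe set gave -0.24 and had a Pearson r of 0.96 with the brighter one.

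MZB1, a chaperone partner in the folding of immunoglobulin, had fold changes near those of PRDM1 with wider errors. At its brighter probe set the values were 8.51, 8.70, 8.33 and 9.25 on peer arrays and 7.91, 8.22, 8.56 and 8.20 on surrogate-peer arrays, against 8.76, 9.19, 9.48, 9.92 and 8.59 on maternal arrays. All 4 surrogate-peer arrays lay below all maternal arrays, whereas 2 of the 4 peer arrays lay within the maternal range. The log2 fold change was -0.73 ± 0.22 (SE, 95% confidence interval -1.21 to -0.24, limma adjusted p = 0.0614) and missed the threshold.

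The second MZB1 probe set gave a log2 fold change of -0.76 (limma adjusted p = 0.110) and followed the first with a Pearson r of 0.98. The brighter probe set was called without maternal array 1, at -0.84 (adjusted p = 0.0300), and with array weights, at -0.85 (adjusted p = 0.0442). With the 3' to 5' ratio as a covariate its log2 fold change was -0.31 (adjusted p = 0.545). MZB1 is made in B cells as well, and the B cell markers gave a list mean of -1.16 to 0.51 on non-maternal arrays, against 0.02 to 0.98 on maternal arrays, with 1 of 10 markers, FCRLA, called lower (-0.92, adjusted p = 0.0210). Its other probe set gave -0.15 (adjusted p = 0.533), and a less bright MS4A1 probe set was called lower (-1.07, adjusted p = 0.0315). By group, the B cell list lay at -1.16 to -0.14 on surrogate-peer arrays, all below the maternal arrays, and at -0.25 to 0.51 on peer arrays. Its genes had a median log2 fold change of -1.18 in surrogate-peer minus maternal, with 10 of 10 negative, and of -0.19 in peer minus maternal, with 8 of 10 negative. Plasmacytoid dendritic cell markers gave -0.30 to 0.08 on non-maternal arrays, against 0.05 to 0.42 on maternal arrays, with GZMB of 5 called lower, and IRF7 lower at its less bright probe set (-1.21, adjusted p = 0.0415). GZMB, at -1.37, is also in the NK list and had the largest change of the 5 at the brightest probe sets. The others gave -0.13 (TCF4), 0.04 (IRF7), -0.29 (PLAC8) and -0.26 (PTCRA). The share of all tested probe sets called lower was 1.35%. The part of B cells and plasmacytoid dendritic cells in the MZB1 values was not tested.

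JCHAIN, which joins units of secreted IgM and IgA, had group means of 10.93 ± 0.56 in peer (SD, n = 4), 10.89 ± 0.37 in surrogate-peer (SD, n = 4) and 10.87 ± 0.42 in maternal animals (SD, n = 5). Its bright probe set read 10.84, 10.27, 10.96 and 11.63 on peer arrays and 10.38, 10.95, 11.27 and 10.98 on surrogate-peer arrays, against 10.81, 10.76, 10.55, 11.60 and 10.64 on maternal arrays. Peer array 4 and maternal array 4 were the highest, and the groups overlapped. On the log2 scale the fold change was 0.04 ± 0.23 (SE, limma adjusted p = 0.923). Its 95% confidence interval of -0.47 to 0.54 does not exclude a difference of that size in either direction. The other JCHAIN probe set was below the filter at 4.21 to 4.96 over all arrays, was not tested, and followed the bright one weakly (Pearson r = 0.39).

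TNFRSF17, the receptor for the survival factors BAFF and APRIL, varied more within groups than between them. It read 7.13, 6.55, 6.999 and 8.10 on peer arrays and 6.76, 7.35, 7.12 and 6.84 on surrogate-peer arrays, against 7.42, 6.31, 7.78, 8.97 and 6.58 on maternal arrays. The maternal arrays held both the lowest and the highest value. Its log2 fold change was -0.30 ± 0.39 (SE, limma adjusted p = 0.628). It was 0.09 without maternal array 4 and 0.85 with the 3' to 5' ratio as a covariate, and none of these passed the threshold.

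SDC1, the surface proteoglycan of mature plasma cells, had 4 tested probe sets and no call. At the brightest, values were 6.69, 6.82, 6.95 and 6.79 on peer arrays and 7.03, 6.88, 6.97 and 6.998 on surrogate-peer arrays, against 6.93, 7.21, 7.14, 6.80 and 7.09 on maternal arrays. The log2 fold changes of non-maternal over maternal arrays were -0.14, -0.10, -0.03 and -0.16 at the 4 probe sets, with limma adjusted p-values of 0.239 to 0.828. The brightest gave -0.33 with the 3' to 5' ratio as a covariate (adjusted p = 0.0646). The 4 did not follow one another: Pearson r between pairs of them ran from -0.53 to 0.72 over the 13 arrays.

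**Figure D2:**
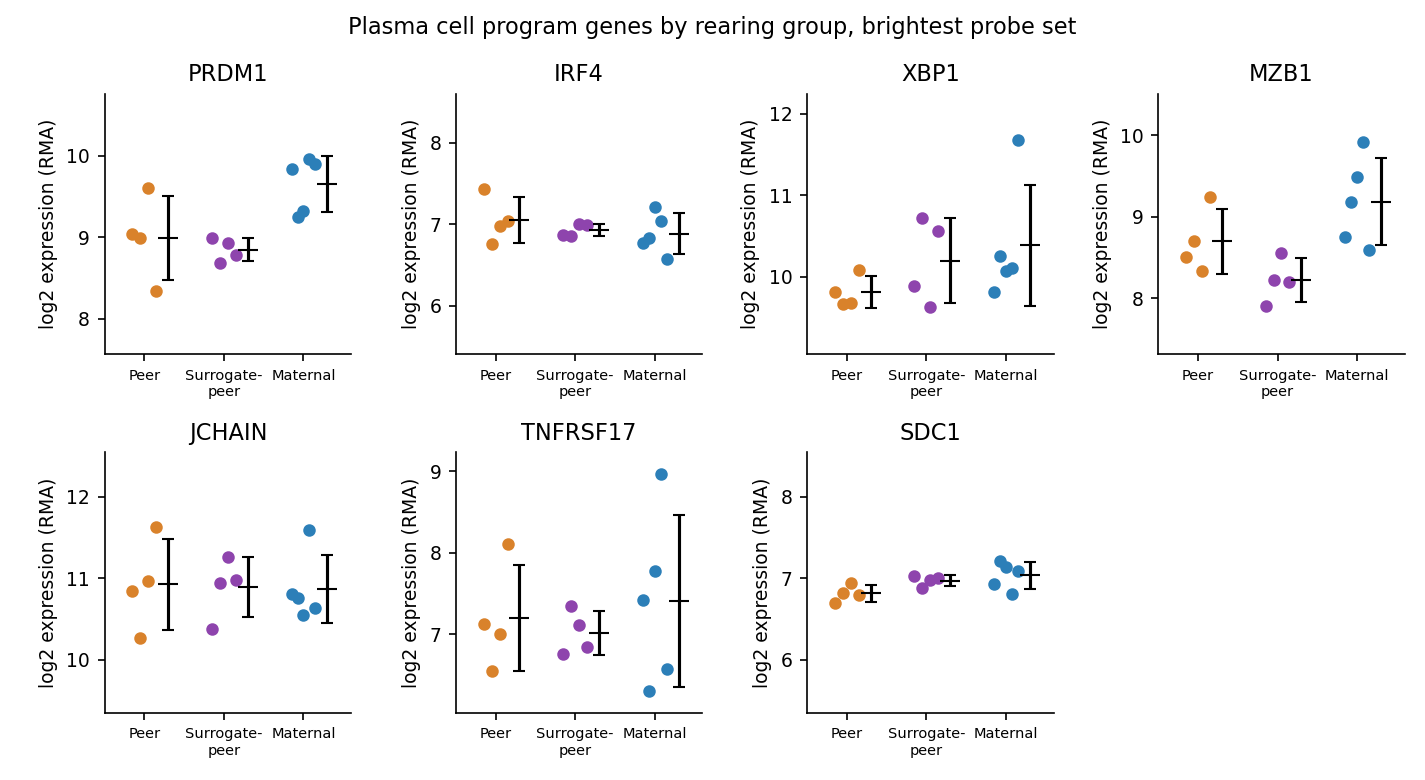
Log2 expression of the 7 measured genes at their brightest probe sets, with points for single arrays and bars for the group mean with its SD, in peer (n = 4), surrogate-peer (n = 4) and maternal (n = 5) arrays. PRDM1 and MZB1 have their highest group mean in the maternal group, as do XBP1, TNFRSF17 and SDC1. Peer array 3 at PRDM1 and peer arrays 2 and 4 at MZB1 lie within the maternal range. JCHAIN has nearly level means, and XBP1 has a single maternal array at 11.68 above all others.

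Read together, 11 of the 13 member probe sets had negative fold changes, with a median of -0.24, beside a median of 0.01 and 49.0% negative over all tested probe sets. Of the 13, 4 had an unadjusted limma p under 0.05 and were lower in non-maternal animals, the PRDM1 and MZB1 probe sets, against 10% of all tested probe sets. These shares describe 7 genes, several of which are read by more than 1 probe set.

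Each non-maternal group was also set against the same maternal arrays, so the following comparisons share those controls. Between peer and maternal arrays, limma called 0 of the 13 member probe sets, against 0.353% of all tested probe sets, and 3 had an unadjusted p under 0.05, all lower, against 8.2%. The lowest adjusted p was 0.0586, at PRDM1 (MmuSTS.3030.1.S1_at), with a log2 fold change of -0.88. It was the 1 member probe set of 13 whose peer values all lay below the maternal ones, against 3.85% of all tested probe sets. MmugDNA.39211.1.S1_at of PRDM1 gave -0.66 (adjusted p = 0.109) and the brightest SDC1 probe set -0.22 (adjusted p = 0.162), both with overlap. With the 3' to 5' ratio as a covariate this SDC1 probe set gave -0.37 and was called (adjusted p = 0.0465), while MZB1 was -0.16 (adjusted p = 0.753) against -0.49 without it, and XBP1 -1.01 (adjusted p = 0.127) against -0.58.

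Between surrogate-peer and maternal arrays, limma called 0 of the 13, and the share over all tested probe sets was 0%. An unadjusted p under 0.05 was found at 4 member probe sets, all lower, against 6.32% of all tested probe sets. They were again those of PRDM1, at -0.90 (adjusted p = 0.0801) and -0.81 (adjusted p = 0.105), and of MZB1, at -0.96 (adjusted p = 0.103) and -1.04 (adjusted p = 0.136). Groups did not overlap at 3 of these 4, the dimmer MZB1 probe set being the exception, and such separation was seen in 2.48% of all tested probe sets. MZB1, with the 3' to 5' ratio as a covariate, was -0.46 (adjusted p = 0.505) and XBP1 -0.86 (adjusted p = 0.322), against -0.19 for XBP1 without it. The 10 B cell markers were all negative in the same comparison, as given above, and their part in the MZB1 values was not tested. XBP1, IRF4, JCHAIN, TNFRSF17 and the brightest SDC1 probe set had adjusted p-values of 0.653 or more here.

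No member passed the test between surrogate-peer and peer arrays. Limma called 0 of the 13 member probe sets and 0% of all tested probe sets, and 0 of the 13 had an unadjusted p under 0.05, beside 1.83% of all tested probe sets. The log2 difference, surrogate-peer minus peer, was -0.15 for PRDM1 at MmugDNA.39211.1.S1_at (95% confidence interval -0.66 to 0.37) and -0.02 at MmuSTS.3030.1.S1_at (-0.48 to 0.45). For MZB1 it was -0.47 (95% confidence interval -1.07 to 0.12). With 4 arrays in each group, differences inside these intervals were not excluded.

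**Figure D3:**
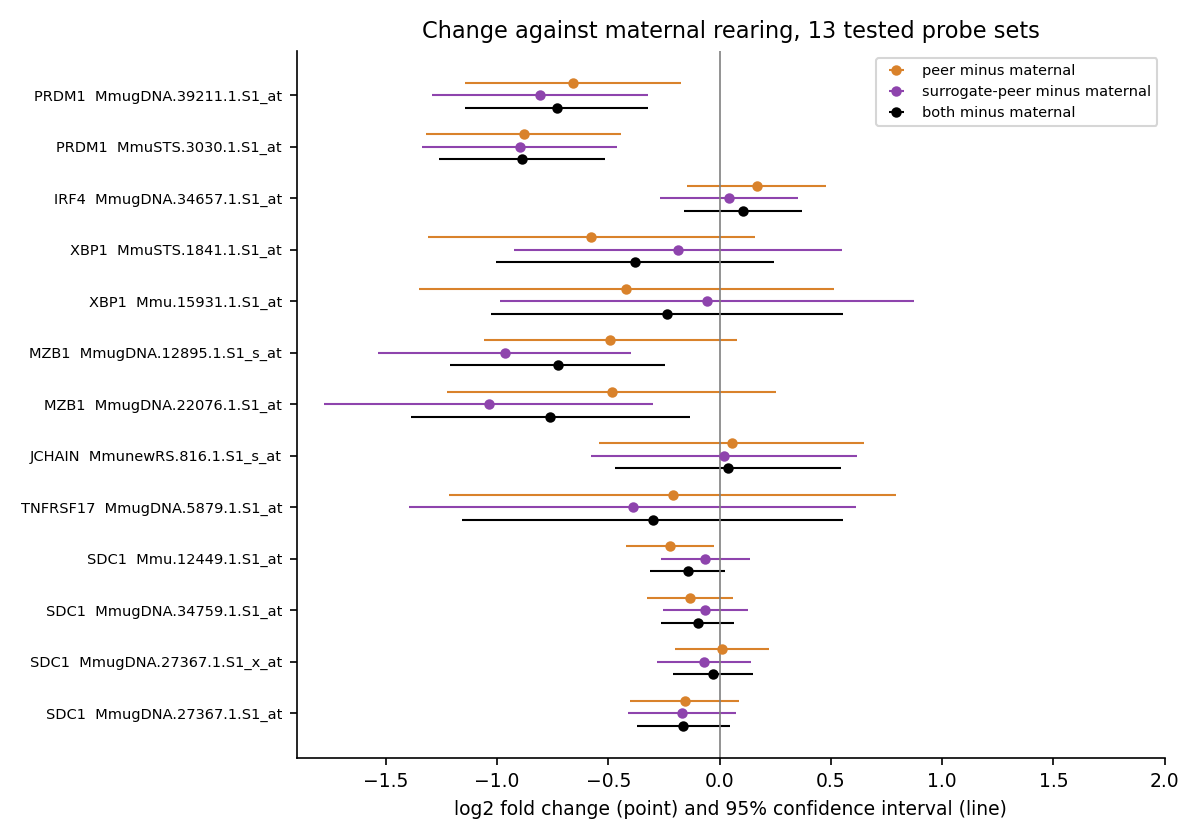
Log2 fold changes (points) with 95% confidence intervals (lines) at the 13 tested probe sets for peer minus maternal, surrogate-peer minus maternal and both minus maternal. The intervals of the 2 PRDM1 probe sets lie below 0 in all 3 comparisons, and those of the 2 MZB1 probe sets in all but peer minus maternal. Those of JCHAIN and TNFRSF17 span 0. The SDC1 intervals are short and close to 0, and that of the brightest SDC1 probe set lies below 0 in peer minus maternal (-0.42 to -0.02).

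The members did not move as 1 block from array to array. Of 21 pairs of genes, each at its brightest probe set over 13 arrays, 0 passed Benjamini-Hochberg adjustment of the permutation p. JCHAIN and TNFRSF17 had the highest Pearson r, 0.70 (permutation p = 0.00769, adjusted p = 0.148), with a Spearman rho of 0.57 (permutation p = 0.0464, adjusted p = 0.461). Without peer array 4 and maternal array 4 the r was 0.25, so that the relation rested on those arrays. MZB1 and TNFRSF17 followed with r = 0.66 (permutation p = 0.0141, adjusted p = 0.148) and rho = 0.44 (permutation p = 0.135, adjusted p = 0.473), and r was 0.21 without maternal arrays 3 and 4. For deviations from the group means these r were 0.73 and 0.74. PRDM1 had r between -0.27 and 0.31 with the 6 other genes, and 0 of these passed.

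**Figure D4:**
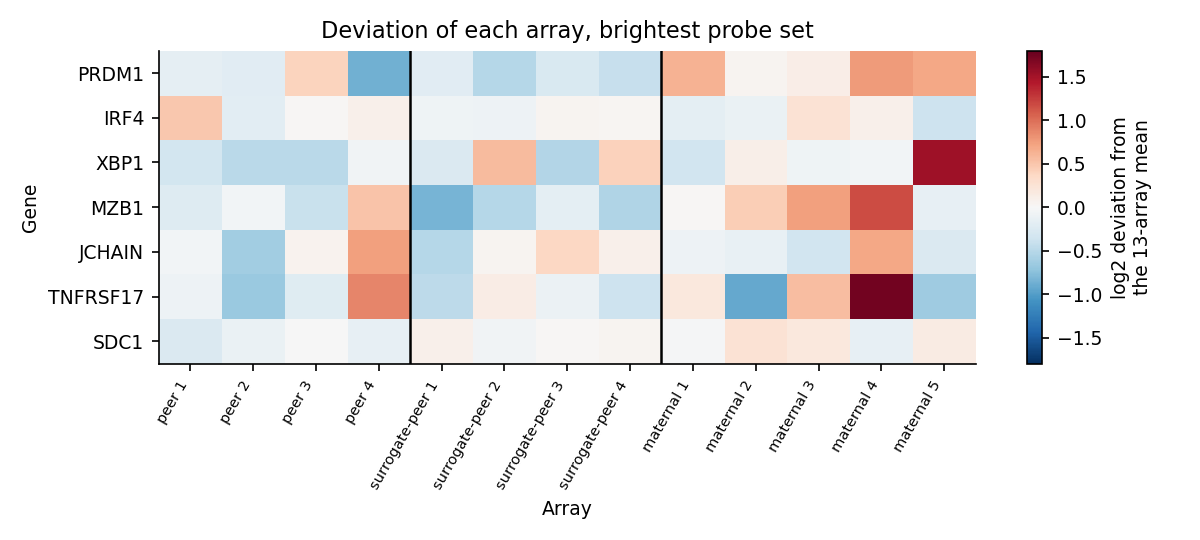
Deviation of each gene's brightest probe set from its mean over the 13 arrays, on the log2 scale, with genes in rows and arrays in columns. Maternal array 4 and peer array 4 are high for MZB1, JCHAIN and TNFRSF17, maternal array 5 is high for XBP1, and the PRDM1 row separates the maternal arrays from most of the others.

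Beside the marker lists of 8 other blood cell types, 0 of 56 gene and list pairs passed adjustment for Pearson r, and 7 had an unadjusted permutation p under 0.05. XBP1 and the monocyte list had the highest, r = 0.71 (permutation p = 0.00829, adjusted p = 0.393) and rho = 0.76 (permutation p = 0.00368, adjusted p = 0.206). Of the other 6, PRDM1 held 3, with the basophil list (r = -0.61, permutation p = 0.0257, rho = -0.61, permutation p = 0.0285), the T cell list and the plasmacytoid dendritic cell list (r = 0.57, permutation p = 0.0431, rho = 0.60, permutation p = 0.0329), with adjusted p-values of 0.393 for r and 0.369 for rho in both. These r were -0.25 without maternal arrays 4 and 5 for the basophil list and 0.57 without maternal arrays 1 and 2 for the dendritic cell list, and -0.16 and -0.13 for deviations from the group means. The dendritic cell list shares GZMB with the NK list. For XBP1 and the monocyte list r was 0.70 without maternal arrays 2 and 5 and 0.65 for deviations from the group means. MZB1 and the B cell list had r = 0.59 (permutation p = 0.0361, adjusted p = 0.393) and rho = 0.69 (permutation p = 0.0118, adjusted p = 0.330). That r was 0.34 without surrogate-peer arrays 1 and 2, and 0.14 for deviations from the group means. XBP1 and the T cell list had r = -0.64 (permutation p = 0.0182, adjusted p = 0.393) and rho = -0.62. That r was -0.38 without maternal arrays 2 and 5, and -0.66 for deviations from the group means. MZB1 and the basophil list had r = -0.55 (permutation p = 0.0492, adjusted p = 0.393) and rho = -0.52. That r was -0.42 without maternal arrays 4 and 5, and -0.13 for deviations from the group means.

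The genes most like each member were taken as the 3 with the highest Pearson r over the 13 arrays, as a description. They were picked as the highest among many probe sets, so that a high r follows in part from the picking. For MZB1 they were TNFRSF13B (TACI, another receptor for BAFF and APRIL), CHST7 and SMTN, at r of 0.93, 0.91 and 0.90. For TNFRSF17 they were UBE2S, SLC2A1 and CARM1, at 0.98, 0.92 and 0.91. PRDM1 was closest to MOB3A, KIF4A and ECEL1 (0.89, 0.89 and 0.86), and XBP1 to TENT5A, GNB4 and MTHFS (0.92, 0.90 and 0.90). JCHAIN had PILRA, TEX29 and PDIA4 (0.81, 0.80 and 0.79), IRF4 had ALKBH2, CSF2 and FAF1 (0.87, 0.86 and 0.86), and SDC1 had SQSTM1, EMILIN3 and ZNF704 (0.89, 0.85 and 0.83). Spearman rho was 0.52, 0.63 and 0.82 for the genes of JCHAIN, and 0.69 to 0.96 for those of the other members.

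The wider program was read through 7 lists of related genes and a list of immunoglobulin genes, with 1 probe set per gene. Counts of calls stand beside 6.64% called higher and 1.35% called lower over all tested probe sets. The calls of list genes, like those over all tested probe sets, depended on single maternal arrays. Of 16 genes of all lists called between non-maternal and maternal arrays, 0 were called without maternal array 4 and 1, GZMB, without maternal array 5. All directions were kept. Over all tested probe sets, the calls in these fits were 30 and 60, against 2107 with all arrays. With the 3' to 5' ratio as a covariate, 3 of the 16 were called, MYC, FCRLA and MS4A7, and the log2 fold change of NKG7 was -0.34, against -1.01 without the covariate. Of 10 other plasma cell genes tested, 1 was called lower in non-maternal animals and 0 higher, with a list median of -0.07. It was CREB3L2, a transcription factor of the secretory pathway, at -0.32 (limma adjusted p = 0.0434). Of 14 genes listed as immunoglobulin genes IGLL1 alone was measured, at -0.19 (adjusted p = 0.151). IGLL1 is an immunoglobulin lambda-like gene and not an antibody chain gene, so antibody RNA was not read by this list.

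Of the genes listed as B cell program factors, 10 were tested, of which 8 had positive fold changes, with a list median of 0.28. The 2 negative ones were BCL6 (-0.56 and -0.53 at its 2 probe sets) and EBF1 (-0.49 and -0.65), with adjusted p-values of 0.177 to 0.433. In this list 1 gene was called higher, beside 6.64% of all tested probe sets. It was MYC, a driver of cell growth, at 0.83 (limma adjusted p = 0.0355). ETS1 was called higher at a less bright probe set (0.45, adjusted p = 0.0336). MYC read 10.85 to 11.41 on non-maternal arrays, against 9.47 to 10.94 on maternal arrays, with overlap. MYC is expressed in T cells as well, whose markers had positive fold changes at 9 of 9 tested genes, and their part in this value was not tested.

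In the unfolded protein response, which senses the load on the endoplasmic reticulum, 0 of 17 genes were called by limma at their brightest probe set, and the median was 0.05. The 3 with the lowest p were ERN1, the enzyme that splices XBP1 RNA, at -0.24 (adjusted p = 0.0546), EDEM1, which takes misfolded proteins to degradation, at 0.32 (adjusted p = 0.0564) and HSP90B1, the chaperone that works with MZB1, at 0.27 (adjusted p = 0.0627). These 3 had unadjusted p-values of 0.00494, 0.00527 and 0.00680. The other EDEM1 probe set was called higher, at 0.60 (adjusted p = 0.0287). Of 20 genes of the secretory machinery, 1 was called higher, beside 6.64% of all tested probe sets, with a list median of 0.07. This was SRP54, part of the particle that brings new proteins to the endoplasmic reticulum, at 9.19 to 9.55 on non-maternal arrays, against 8.87 to 9.17 on maternal arrays, a log2 fold change of 0.34 (adjusted p = 0.0267). SEC24A, of the coat of transport vesicles, was called higher at a less bright probe set (0.68, adjusted p = 0.0303).

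Among 10 genes of BAFF and APRIL signalling, 2 were called lower and 0 higher, with a median of -0.03. For all tested probe sets the shares were 1.35% lower and 6.64% higher. TNFRSF13B read 7.89 to 8.78 on non-maternal arrays, against 8.70 to 9.35 on maternal arrays, a log2 fold change of -0.73 (limma adjusted p = 0.0203). Its 2 other probe sets gave -0.28 (adjusted p = 0.0636) and -0.03 (adjusted p = 0.816), so the probe sets of this gene differ. MAP3K14 (NIK), the kinase of the pathway that BAFF receptors use, read 7.35 to 7.72 on non-maternal arrays, against 7.88 to 8.10 on maternal arrays, without overlap (log2 fold change -0.36, adjusted p = 0.0232). Of 10 genes of homing and cytokine cues, IL6ST, the shared receptor chain of the IL-6 family, was the 1 called, at 1.12 (adjusted p = 0.0272), with a list median of -0.12. Of 9 cell cycle genes limma called 0, with a median of -0.12, and MKI67 had the lowest p, at -0.22 (unadjusted p = 0.0680, adjusted p = 0.203).

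**Figure D5:**
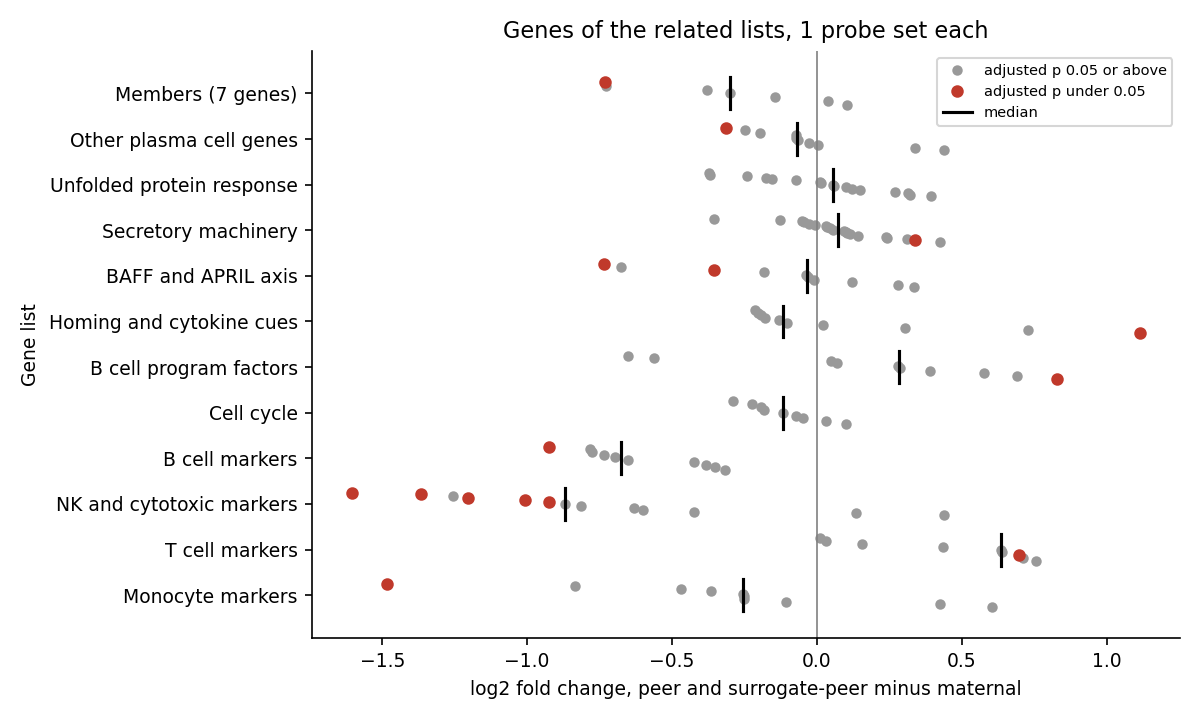
Log2 fold changes of the genes of the related lists, peer and surrogate-peer minus maternal, with 1 point per gene at its brightest probe set, 1 row per list, called genes in red, uncalled genes in grey and a bar at the list median. The NK and cytotoxic markers have 5 called genes and every other row at most 2, MYC at 0.83 and IL6ST at 1.12 lie to the right of 0, and TNFRSF13B at -0.73 lies to the left.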

How the data were processed

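RNA of PBMC was hybridised to Affymetrix rhesus genome arrays, 1 per sample (13 arrays). The deposited values are log2 expression per probe set. The submitters' processing notes name RMA; its version, and whether the arrays were normalized as 1 set, are not given there. There are no reads to count, and precision is limited by the number of arrays.

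The 158 control probe sets among 52865 were left out, and probe sets whose average signal exceeded the median of all such averages (6.04) were tested. Gene names come from the platform annotation, for probe sets with 1 symbol only; 361 probe sets had several symbols and 27390 had none. All 13 arrays entered 1 limma 3.58.1 fit in R 4.3.3 (lmFit, eBayes), two-sided, with Benjamini-Hochberg adjustment over 26352 probe sets and a threshold of 0.05. The fit was tested on simulated data. Brightest means the highest mean over the arrays. Correlations used two-sided permutation tests with 100000 resamples in Python 3.11.15, with ranks from scipy 1.17.1.

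Members and the 16 other lists (230 genes, 156 measured, 146 tested) were chosen with earlier results of these data known. Named genes were the members, and in most lists the called genes or up to 3 with the lowest p. Further genes were named to show the spread of a list. Alternatives were other filters, array centring, quantile normalization, array weights, trended robust eBayes, fits to the compared groups alone, the title number or the 3' to 5' ratio as a covariate, averaged probe sets, and left-out arrays.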

Additional observations from a re-analysis of the deposited data

Results flagged for a closer look

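Of 45 tests of 1 array against the rest of its group, over 15 probe sets and 3 groups, 3 found an array far from the others, where chance gives about 5% of such tests. At the brighter XBP1 probe set maternal array 5 read 11.68, and the next maternal value was 10.25. At the bright JCHAIN probe set maternal array 4 read 11.60, with the next at 10.81. At 1 SDC1 probe set (MmugDNA.27367.1.S1_at) maternal array 4 read 6.86, with the next at 6.35. Maternal array 4 also had the highest 3' to 5' ratio, 2.23, and maternal array 5 the lowest mean correlation with the other arrays, 0.975. The part of these in the 3 values was not tested.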

How the results depend on the processing

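Over 28 log2 fold changes, 7 genes in 4 comparisons, 653 alternative values were computed. Of these, 584 kept the direction and the side of the threshold, 14 lost a call, 4 gained one and 51 changed sign, 31 of them for JCHAIN. The number of member probe sets called between non-maternal and maternal arrays was 2, and it was 1 with the stricter filter, with the title number and with the 3' to 5' ratio, 0 without maternal arrays 2 and 5 together, and 0 to 3 with single arrays left out. It was 0 without maternal array 4, 0 without maternal array 5 and 3 without maternal array 1. Between peer and maternal arrays it was 0, and 1 with array weights, 1 with the title number, 2 with the 3' to 5' ratio and 0 to 1 with single arrays left out (1 without maternal array 1). Between surrogate-peer and maternal arrays it was 0, and 0 to 2 with single arrays left out (2 without maternal array 1). Over all tested probe sets, calls between non-maternal and maternal arrays ran from 30 without maternal array 4 to 4823 without maternal array 1, against 2107. The cause was not tested.

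All fold changes that changed sign were uncalled. Without maternal arrays 2 and 5 together, non-maternal minus maternal was 0.0076 for XBP1, -0.019 for IRF4 and -0.076 for JCHAIN. In that setting peer minus maternal was -0.059 for JCHAIN, and surrogate-peer minus maternal was 0.20 for XBP1, -0.080 for IRF4, -0.093 for JCHAIN and 0.013 for SDC1. With arrays centred, JCHAIN was -0.025 (non-maternal), -0.0077 (peer) and -0.042 (surrogate-peer) against maternal, and IRF4 -0.019 (surrogate-peer). Quantile normalization gave -0.012 for JCHAIN in surrogate-peer minus maternal. Array weights gave JCHAIN -0.086, -0.14 and -0.028 in those 3 comparisons and 0.12 in surrogate-peer minus peer. With the title number JCHAIN was -0.21, -0.0023 and -0.41, and XBP1 in surrogate-peer minus peer was -0.29. The mean of both JCHAIN probe sets gave -0.017 for non-maternal and -0.053 for surrogate-peer minus maternal. With the 3' to 5' ratio TNFRSF17 was 0.85 (non-maternal), 0.69 (peer) and 1.003 (surrogate-peer) against maternal, and in surrogate-peer minus peer TNFRSF17 was 0.32 and JCHAIN 0.058. With that ratio IGLL1 was 0.025 and MKI67 0.023, non-maternal minus maternal. The same alternatives were added for the listed genes named in the text after the data were seen.

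With single arrays left out, surrogate-peer minus peer ran from -0.37 to 0.056 for PRDM1, -0.22 to 0.0044 for IRF4, -0.25 to 0.20 for JCHAIN and -0.39 to 0.12 for TNFRSF17. Surrogate-peer minus maternal ran from -0.36 to 0.14 for XBP1, -0.035 to 0.12 for IRF4 and -0.10 to 0.20 for JCHAIN. Peer minus maternal ran from -0.18 to 0.27 for JCHAIN and -0.51 to 0.18 for TNFRSF17. Non-maternal minus maternal ran from -0.079 to 0.22 for JCHAIN and -0.58 to 0.089 for TNFRSF17.

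No paired analysis was possible because the labels give the groups no shared replicate numbers.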

Other observations

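The lists for other blood cell types gave these further values between non-maternal and maternal arrays. Beside them, 6.64% of all tested probe sets were called higher and 1.35% lower. Of 4 tested basophil and mast cell genes, 4 had positive fold changes, with a list median of 1.16, and 2 were called higher. The called genes were FCER1A, a chain of the IgE receptor, at a log2 fold change of 1.91 (limma adjusted p = 0.0315), and CPA3, a granule protease, at 1.34 (adjusted p = 0.0437). Of 10 monocyte genes, MS4A7 alone was called, at -1.48 (adjusted p = 0.0310), with a list median of -0.25. By limma, 0 of 8 platelet genes and 0 of 2 erythroid genes were called, with medians of -0.30 and -0.22. In the comparisons of single groups, CST7, an inhibitor of proteases in cytotoxic cells, was the 1 listed gene called, at -1.14 in peer minus maternal (adjusted p = 0.0486).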
